A study of Mus musculus with 34 samples.

Results

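The G1 cyclins and the kinases they activate were followed over 10 groups of mouse cells: Ccnd1, Ccnd2 and Ccnd3 (cyclins D1, D2 and D3), Ccne1 and Ccne2 (cyclins E1 and E2), and the kinase genes Cdk2, Cdk4 and Cdk6. Members were the probe sets whose only gene symbol in the platform's annotation is 1 of these 8 names. The rule found 10 of the 12488 probe sets of the array, for 7 of the 8 genes; no probe set carried Cdk6 as its only symbol, and Cdk6 is not analysed here. Ccnd1, Cdk2 and Cdk4 have 2 probe sets, and the brighter of the pair stands for the gene unless the other is named.

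D-type cyclins are made in response to growth signals and bind CDK4 and CDK6, and these complexes begin the phosphorylation of the retinoblastoma protein RB1 in G1. Cyclin E binds CDK2 later in G1, completes that phosphorylation and releases E2F factors, which switch on the genes of DNA replication. INK4 proteins inhibit the cyclin D kinases, and CIP/KIP proteins inhibit CDK2 complexes. Mouse embryonic stem cells are known for a short G1 phase with little cyclin D activity and cyclin E-CDK2 activity throughout the cycle, so the balance of cyclin E and cyclin D transcripts over pluripotent and somatic cells is the question here.

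The arrays cover 6 pluripotent and 4 somatic groups with no drug or gene deletion. Inner cell mass (ICM, 3 arrays) was isolated by immunosurgery from E3.5 blastocysts of mixed sex and of crosses of C57Bl/6, C3H and CD1 mice. All other groups were C57Bl/6. Primordial germ cells (PGC) were sorted as Oct4/GFP+ cells, GFP being driven by the Oct4 transgene, at E11.5 with the sexes mixed (4 arrays) and at E13.5 from females (3) and males (3). The Oct4/GFP- cells of the E11.5 gonad with its mesonephros form the group SGM (4), a mixture of cell types. The male lines, kept in serum with LIF, were embryonic stem cells at passage 9 to 14 (ESC, 2) and embryonic germ cells at passage 19 that had been derived from E12.5 germ cells (EGC, 3). E13.5 embryonic fibroblasts in serum at passage 2 (MEF, 6), neurospheres of the subventricular zone of 8-week-old mice grown in EGF at passage 1 (NSC, 2) and side population Sca-1+, c-Kit+, CD34-, Lin- bone marrow cells of 8-week-old males (HSC, 2) complete the somatic side. Values are log2 signals of a probe set, and differences are log2 differences between group means. Levels of different probe sets are not comparable with each other, so differences of a gene between groups are taken within a probe set. The cyclin E against cyclin D score and the means over marker genes join several probe sets. Brightness ranks set a probe set against all others. In these bulk samples fewer cells of a type and less RNA per cell cannot be told apart.

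Pluripotency, neural stem and haematopoietic marker genes matched the labels, but germ cell genes did not set all germ cell groups apart. The mean of 6 pluripotency genes lay between 10.40 and 11.55 on arrays of the pluripotent groups and between 6.00 and 7.36 on somatic arrays. The mean of 4 neural stem genes was 10.61 to 10.68 in NSC and at most 7.44 elsewhere. For 4 measured haematopoietic genes it was 6.73 to 6.87 in HSC and at most 6.01 elsewhere. For 7 measured germ cell genes it was 7.88 to 8.55 in PGC E11.5 and 8.05 to 8.78 in PGC E13.5 female. In PGC E13.5 male it was 7.40 to 7.50, below ICM (7.71 to 7.75) and ESC (7.71 to 7.76). HSC, at 6.92 to 6.99, lay above EGC, at 6.14 to 6.26, on that list. The mean of 6 proliferation genes (such as Mki67 and Top2a) was lowest in MEF (6.96 to 7.13) and 10.15 to 10.71 in PGC E11.5. The 3′ minus 5′ difference of the Gapdh control probe sets, a measure of RNA length, was 0.90 in NSC and 1.00 in HSC against group means of 2.65 to 4.00 elsewhere, and its part in the NSC and HSC results was not tested.

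RefSeq promoter sequence (build GRCm38.p6) was at hand for 5 of the 8 genes, and the 250 bases before the start are printed for Cdk4, Cdk2 and Ccne1, the kinase whose signal varied most, and the partner pair of the cyclin E complex. Capitals mark exact matches, on either strand, to the E-box CACGTG or to the E2F letters TTTCCCGC, TTTGGCGC, TTTCGCGC and TTTGCCGC. The Cdk4 promoter lies at chr10:127063285-127063534 on the + strand, Cdk2 at chr10:128705052-128705301 and Ccne1 at chr7:38107491-38107740, both on the - strand. Each line reads 5′ to 3′ towards the gene.
Cdk4: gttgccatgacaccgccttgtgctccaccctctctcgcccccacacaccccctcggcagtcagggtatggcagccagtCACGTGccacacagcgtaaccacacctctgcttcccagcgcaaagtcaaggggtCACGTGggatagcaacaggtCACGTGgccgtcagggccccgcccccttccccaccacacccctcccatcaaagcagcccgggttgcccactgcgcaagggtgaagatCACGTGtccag
Cdk2: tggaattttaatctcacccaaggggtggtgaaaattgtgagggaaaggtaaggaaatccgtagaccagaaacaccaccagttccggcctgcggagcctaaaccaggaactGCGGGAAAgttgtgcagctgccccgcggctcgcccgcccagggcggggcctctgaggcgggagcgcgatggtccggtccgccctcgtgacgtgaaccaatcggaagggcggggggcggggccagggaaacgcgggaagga
Ccne1: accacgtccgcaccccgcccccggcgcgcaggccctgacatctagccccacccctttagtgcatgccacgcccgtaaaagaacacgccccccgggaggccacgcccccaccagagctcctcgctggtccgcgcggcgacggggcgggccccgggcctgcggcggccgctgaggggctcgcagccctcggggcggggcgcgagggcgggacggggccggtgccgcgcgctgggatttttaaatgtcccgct
The Cdk4 window held 4 E-boxes, which begin 172, 118, 98 and 11 bases before the start. At least 1 E-box stood in 6.02% of 32851 promoter windows of this length, and 4 or more in 0.0213% of them, which is 7 windows. The Cdk2 window held 1 E2F match, beginning 140 bases before the start, and 1.86% of windows held at least 1. The Ccne1 window held neither motif but 4 copies of the GC box GGGCGG (both strands), as did 4.09% of windows at 4 or more. The Cdk2 window held 5 copies of the GC box, beside 1.93% of windows with 5 or more, and the Cdk4 window held 1. A match is a string of letters and not a measured binding site, and the lack of one speaks only of this window.

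Cyclin D1 varied most of the 7 genes. Ccnd1 read 9.38, 9.09 and 9.30 in ICM, 9.41, 9.01, 9.25 and 9.80 in PGC E11.5, and at E13.5 it read 9.91, 10.48 and 10.80 in female and 9.76, 9.40 and 9.50 in male germ cells. It read 10.62 and 10.78 in ESC and 12.14, 12.34 and 12.39 in EGC. In somatic cells it read 10.87, 11.34, 10.99 and 10.94 in SGM, 12.98 to 13.32 with a median of 13.06 in MEF, 12.45 and 12.20 in NSC, and 8.88 and 9.08 in HSC. The order of group means ran from MEF (13.12 ± 0.16, SD, n = 6) through NSC, EGC, SGM, ESC, PGC E13.5 female, PGC E13.5 male, PGC E11.5 and ICM to HSC (8.98 ± 0.14, n = 2), a 17.7-fold range. Neighbours whose arrays overlapped were NSC with EGC, ESC with PGC E13.5 female, PGC E13.5 male with PGC E11.5, and PGC E11.5 with ICM. EGC, with a mean of 12.29 ± 0.13 (n = 3), was thus the 1 pluripotent group that overlapped with NSC.

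Cyclin D2 was low in all pluripotent groups. Ccnd2 read 7.36, 7.21 and 7.12 in ICM, 7.63 and 7.37 in ESC and 7.03, 7.11 and 6.85 in EGC. In germ cells it read 7.08, 6.83, 6.87 and 7.08 at E11.5, 6.90, 6.91 and 6.91 in E13.5 females and 7.03, 6.93 and 6.94 in E13.5 males. These 18 pluripotent values lay within 6.83 to 7.63. Somatic values were 7.49, 7.55, 8.06 and 7.49 in SGM, 9.12 to 10.92 with a median of 10.30 in MEF, 10.18 and 9.48 in NSC, and 8.47 and 8.55 in HSC. MEF, NSC and HSC lay above every pluripotent array, while SGM overlapped with ESC. The range of group means was 9.46-fold, and the 10.15 ± 0.63 (n = 6) of MEF had the widest spread within a group for this gene.

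Cyclin D3 ran the other way. Ccnd3 read 11.59, 11.18 and 11.91 in ICM, 11.34, 11.26, 11.45 and 11.47 in PGC E11.5, and 11.09 and 10.90 in ESC. At E13.5 it read 10.95, 10.91 and 10.58 in female and 10.73, 10.69 and 10.87 in male germ cells, and it read 10.73, 10.74 and 10.82 in EGC. Somatic values were 10.92, 10.70, 10.80 and 10.77 in SGM, 10.24 to 10.56 with a median of 10.32 in MEF, 10.04 and 9.86 in NSC, and 10.50 and 11.03 in HSC. ICM and PGC E11.5 overlapped and stood at the top, NSC (9.95 ± 0.13, n = 2) stood apart at the bottom, MEF (10.37 ± 0.12, n = 6) came next and overlapped with HSC alone, and the other 6 groups formed a chain of overlapping neighbours in between. Over the 10 group means Ccnd3 correlated negatively with Ccnd1 (Pearson r = -0.708, Spearman rho = -0.636) and with Ccnd2 (r = -0.741, rho = -0.455); the points share array, normalization and in part sex and culture, and the values are a description. Ccnd1 and Ccnd2 had r = 0.596 and rho = 0.43 over the same 10 groups.

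Cyclin E1 moved over a narrower range, 2.09-fold between group means. Ccne1 read 9.92, 9.95 and 9.96 in EGC, 9.55 and 9.37 in ESC, and 9.13, 9.08 and 8.82 in ICM. In germ cells it read 9.16, 9.09, 9.26 and 9.39 at E11.5, 9.49, 9.53 and 9.31 in E13.5 females and 9.44, 9.42 and 9.28 in E13.5 males. EGC lay above all other groups, and the next 9 groups formed an unbroken chain of overlapping neighbours. Somatic values were 9.13, 9.10, 9.22 and 8.99 in SGM, 8.59 to 9.05 with a median of 8.97 in MEF, 8.99 and 9.13 in NSC, and 8.87 and 8.96 in HSC. ICM, at 9.01 ± 0.17 (n = 3), was the pluripotent group whose Ccne1 fell among the somatic ones.

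Cyclin E2 could hardly be assessed. The Ccne2 probe set averaged 3.95 over the arrays and was brighter than only 3.29% of all probe sets; the files give no detection calls. Its values ran from 3.77 to 4.40 on all arrays except the HSC arrays, which read 3.27 and 3.52. HSC was the lowest group (3.39 ± 0.18, n = 2), and the other 9 group means lay between 3.93 and 4.13 with neighbours overlapping.

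The cyclin E partner Cdk2 varied least of the kinases, with a 1.79-fold range. Cdk2 read 9.14, 9.00 and 9.21 in EGC, 8.86, 8.75 and 8.60 in ICM, and 8.51 and 8.59 in ESC. In germ cells it read 8.49, 8.33, 8.28 and 7.99 at E11.5, 7.94, 8.23 and 8.72 in E13.5 females and 8.28, 8.78 and 8.64 in E13.5 males. EGC had the highest group mean (9.12 ± 0.11, n = 3) and did not overlap with ICM, the next group; the other 9 groups overlapped with their neighbours. Somatic values were 7.86, 9.46, 8.13 and 8.17 in SGM, 8.09 to 8.46 with a median of 8.32 in MEF, 8.24 and 8.34 in NSC, and 8.17 and 8.62 in HSC. SGM replicate 2, at 9.46, was the highest Cdk2 value of all 32 arrays. Ccne1 and Cdk2, which encode the partners of 1 complex, had r = 0.665 and rho = 0.309 over the 10 group means.

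The cyclin D partner Cdk4 was highest in the gonadal soma. Cdk4 read 12.97, 12.88, 12.85 and 12.79 in SGM, 12.21 and 11.96 in NSC, 11.34 to 11.67 with a median of 11.49 in MEF, and 9.85 and 10.67 in HSC. In pluripotent cells it read 11.91, 11.85 and 12.46 in ICM, 11.89 and 11.84 in ESC, and 11.83, 11.87 and 11.83 in EGC. Germ cells read 11.58, 11.66, 11.67 and 12.24 at E11.5, 11.12, 11.06 and 10.61 in E13.5 females and 11.62, 11.04 and 11.37 in E13.5 males. SGM lay above every other array, HSC held the lowest group mean (10.26 ± 0.58, n = 2), and the remaining neighbours all overlapped. The range of group means was 6.12-fold.

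**Figure D1:**
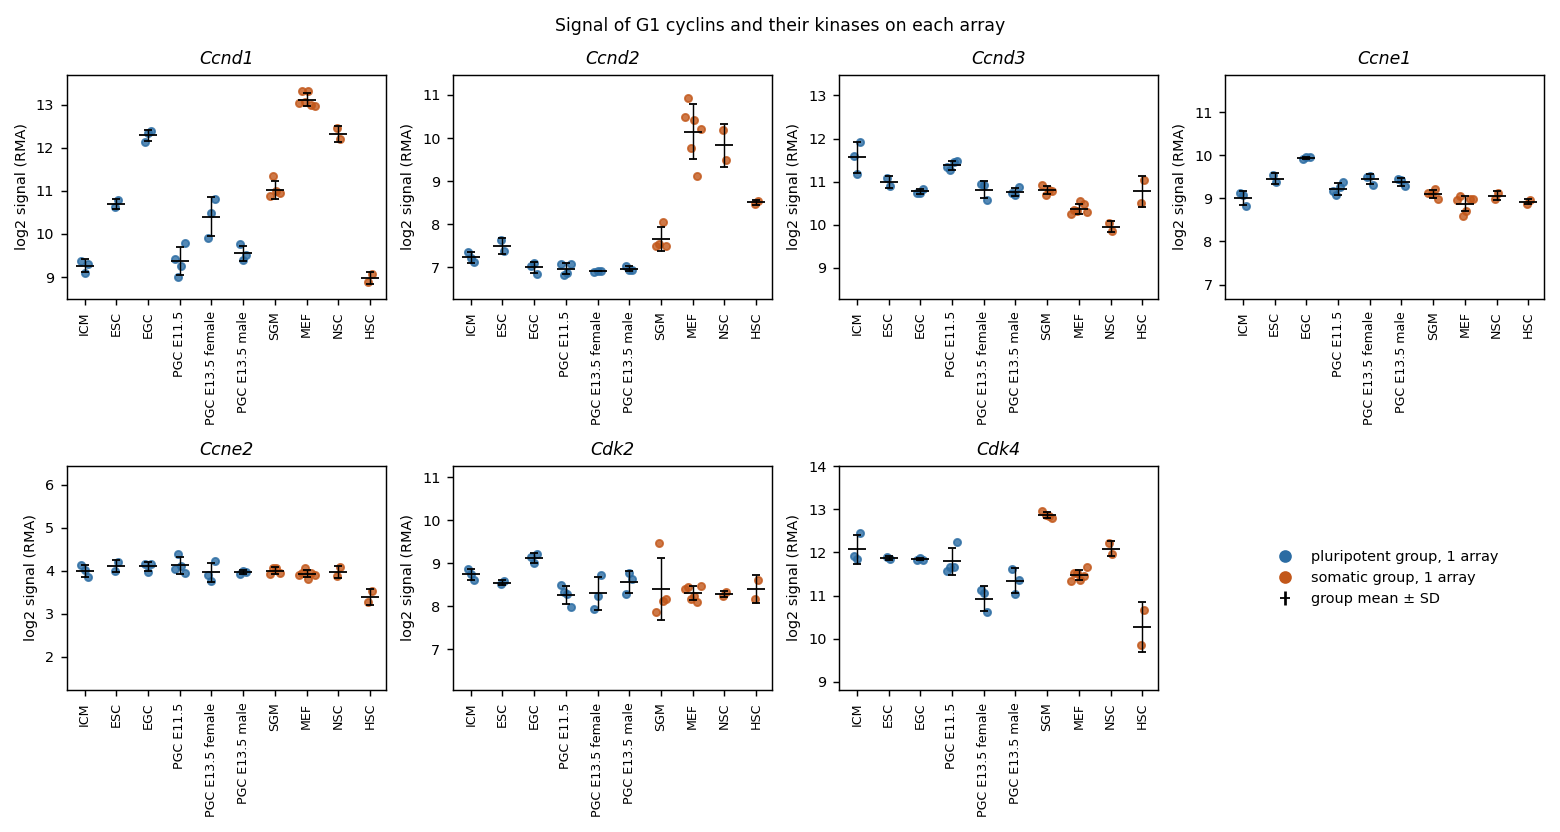
Log2 signal of each of the 7 measured genes on each array by cell group; points are arrays (blue pluripotent, orange somatic), and lines with bars are group means ± SD. Ccnd1 reaches 12.29 in EGC and 13.12 in MEF, Ccnd2 stays at or below 7.63 on every pluripotent array, and Cdk4 is highest in SGM at 12.87.

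The pluripotent groups were compared with the somatic groups as the mean of 6 group means against the mean of 4, with limma over 8251 genes. Pluripotent cells had less Ccnd1 (-1.10 ± 0.08, SE, 2.15-fold, adjusted p = 4.54e-12) and less Ccnd2 (-1.94 ± 0.12, 3.84-fold, adjusted p = 7.19e-14). They had more Ccnd3 (0.57 ± 0.07, 1.49-fold, adjusted p = 1.31e-08), Ccne1 (0.42 ± 0.05, 1.34-fold, adjusted p = 4.93e-08) and Ccne2 (0.22 ± 0.05, 1.16-fold, adjusted p = 0.000887). Thus 3 of 7 members were called higher, where 29.1% of all genes were, and 2 lower, where 34.9% were; together 5 of 7 stand beside 63.9% of all genes. The members' count is near that background. The size of the Ccnd2 difference was exceeded by 0.982% of genes and that of Ccnd1 by 7.04%, whereas 32.4% of genes exceeded Ccne1. The members' median difference was 0.22 against -0.01 over all genes.

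For none of the 7 did the 18 pluripotent arrays and the 14 somatic arrays separate fully, which 1.73% of all genes did. For Ccnd1, HSC lay below every pluripotent array except 1 of PGC E11.5, and EGC lay above SGM and HSC. Cdk4 showed no called difference (-0.03, 95% interval -0.21 to 0.15), and this mean joined opposed groups: it was -0.50 (adjusted p = 2.6e-05) without HSC and 0.37 (adjusted p = 0.00194) without SGM. The Cdk2 difference of 0.24 (interval 0.00 to 0.48) missed the threshold at limma adjusted p = 0.0741, and passed it at 0.33 (adjusted p = 0.000555) without SGM replicate 2. It also passed narrowly without HSC replicate 2 (0.30, adjusted p = 0.0467) or PGC E13.5 female replicate 1 (0.27, 0.0452). Quantile normalization (0.29, adjusted p = 0.0359) and the mean over probe sets (0.15, 0.0454) gave a call too. The Ccne2 call was lost without HSC (0.08, adjusted p = 0.251).

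Cyclin E against cyclin D use was summed up per array as the mean of Ccne1 and Ccne2 minus the mean of the 3 D cyclins, each gene first centred on its mean over the 10 groups; it is a score over the members and carries no test. The score was 0.78 ± 0.11 (SD, n = 3) in PGC E13.5 male, 0.64 ± 0.22 (n = 4) in PGC E11.5 and 0.53 ± 0.11 (n = 3) in PGC E13.5 female. It was 0.35 ± 0.25 (n = 3) in ICM, 0.25 ± 0.07 (n = 2) in ESC and 0.20 ± 0.10 (n = 3) in EGC. Somatic scores were -0.07 ± 0.03 (n = 4) in SGM, -0.07 ± 0.07 (n = 2) in HSC, -0.99 ± 0.39 (n = 2) in NSC and -1.61 ± 0.27 (n = 6) in MEF. All 18 pluripotent arrays, at 0.09 to 0.91, lay above all 14 somatic arrays, at -1.97 to -0.02, and the group means differed by 1.14.

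The parts of the score differed between cell types. In germ cells and ICM it came from low cyclin D: the cyclin D part was -0.56 in PGC E11.5, -0.70 in PGC E13.5 male, -0.42 in PGC E13.5 female and -0.45 in ICM, beside cyclin E parts between -0.09 and 0.10. In EGC the cyclin E part was 0.42 and the cyclin D part 0.22, so the positive score there rested on cyclin E. In HSC both parts were low, at -0.44 for cyclin E and -0.38 for cyclin D, while MEF had a cyclin D part of 1.42. The separation of pluripotent from somatic groups rested in part on Ccnd2: without it the difference was 0.58, EGC scored -0.35 and HSC 0.44. With linear signals summed within each class, HSC scored 0.41 and ICM -0.02, and the groups no longer separated. These sums are not centred by gene, so brighter probe sets weigh more in them. With Ccne1 alone for cyclin E, EGC scored 0.48, but pluripotent and somatic arrays no longer separated fully. HSC replicate 1 (Ccne1 8.87, cyclin D part -0.51) then stood above ICM replicate 3 (Ccne1 8.82, cyclin D part -0.35). The full separation of arrays thus rested also on the dim Ccne2 probe set, which was lowest in HSC. With the mean over a gene's probe sets, EGC scored 0.42, HSC -0.28, PGC E11.5 0.42 and PGC E13.5 male 0.54.

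**Figure D2:**
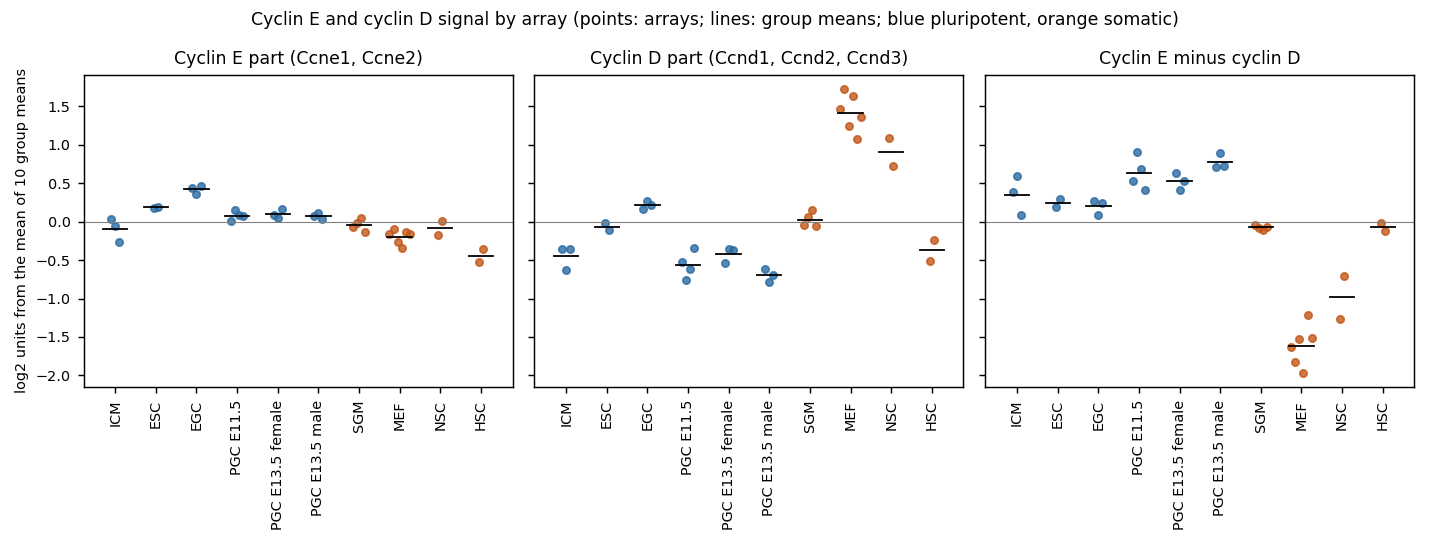
Cyclin E part, cyclin D part and their difference for each array by group, in log2 units from the mean of the 10 group means; points are arrays (blue pluripotent, orange somatic) and lines group means. The difference is above 0 on all pluripotent arrays (0.09 to 0.91) and below 0 on all somatic arrays (-1.97 to -0.02), with MEF and NSC far below the rest.

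Germ cells at E11.5 were compared with the Oct4/GFP- cells of the same region. PGC E11.5 had less Ccnd1 (-1.67 ± 0.16, 3.17-fold, limma adjusted p = 5.99e-10), less Cdk4 (-1.08 ± 0.16, 2.12-fold, adjusted p = 2.13e-06) and less Ccnd2 (-0.68 ± 0.23, 1.6-fold, adjusted p = 0.0131). They had more Ccnd3 (0.58 ± 0.12, 1.5-fold, adjusted p = 0.000197). The arrays of both groups did not overlap for these 4 genes, beside 47.9% of all genes. So 3 members were lower, as were 26.9% of genes, and 1 was higher, as were 23.2%; the 4 called of 7 stand beside 50.2% of genes. Ccne1 (0.11, interval -0.08 to 0.31), Ccne2 (0.13, -0.08 to 0.33) and Cdk2 (-0.13, -0.58 to 0.31) did not pass. The Ccnd2 call was lost without SGM replicate 3 (-0.54, adjusted p = 0.0647). SGM also held more erythroid RNA (mean of 5 genes 10.56 to 11.02 against 6.65 to 8.01) and more mesenchymal RNA (6 genes, 11.47 to 12 against 7.78 to 8.24), whose part in these differences was not tested.

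Between E11.5 and E13.5 female germ cells enter meiosis and male germ cells enter mitotic arrest, and both comparisons share the E11.5 arrays. In females Ccnd1 rose (1.03 ± 0.17, 2.04-fold, limma adjusted p = 3.83e-05), while Cdk4 (-0.86 ± 0.18, 1.81-fold, adjusted p = 0.000445) and Ccnd3 (-0.57 ± 0.13, 1.48-fold, adjusted p = 0.00149) fell. In males Ccnd3 (-0.62 ± 0.13, 1.53-fold, adjusted p = 0.000482) and Cdk4 (-0.44 ± 0.18, 1.36-fold, adjusted p = 0.0356) fell, and Ccnd1 differed by 0.19 (interval -0.16 to 0.53). In females 1 member rose, as did 16.3% of genes, and 2 fell, as did 15.2%; in males none rose (0 also at an unadjusted p under 0.05), beside 31.7% of genes, and 2 fell, beside 20.7%. Taken in either direction, 3 of 7 were called in females against 31.5% of genes, and 2 of 7 in males against 52.4%. Ccnd3 at E13.5 lay below all E11.5 arrays in both sexes, and Cdk4 did so in females but overlapped in males. Members without overlap with E11.5 were thus Ccnd1, Ccnd3 and Cdk4 in females, beside 37.8% of genes, and Ccnd3 in males, beside 57.1%. Proliferation genes were lower at E13.5 too (array means of 9.50 to 9.92 in females and 9.35 to 9.61 in males against 10.15 to 10.71), and the 18S probe sets were brighter (group means of 13.11 and 13.31 against 11.81); the part of either was not tested. With quantile normalization the Ccnd3 differences were -0.31 (adjusted p = 0.154) in females and -0.24 (adjusted p = 0.228) in males, and the male Cdk4 difference was -0.07 (adjusted p = 0.823), while Ccne1 was called higher in females (0.33, adjusted p = 0.0178) and in males (0.33, adjusted p = 0.0117). The dimmer Ccnd1 probe set rose in both sexes (0.25, adjusted p = 0.0326, in females and 0.29, adjusted p = 0.00914, in males), and the mean of both sets gave 0.24 (adjusted p = 0.0416) in males. The male Cdk4 call was also lost without PGC E11.5 replicate 4 (-0.29, adjusted p = 0.142), male replicate 2 (-0.29, 0.207) or male replicate 3 (-0.46, 0.0715).

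Set directly against each other at E13.5, the sexes differed in 1 of 7 members, Ccnd1, which was higher in females (0.84 ± 0.18, 1.79-fold, limma adjusted p = 0.00289; 6.29% of genes were called higher, 2.33% lower and 8.62% in either direction). The female arrays, from 9.91, all lay above the male arrays, up to 9.76. Ccnd2 did not overlap either, without a call; 34.8% of genes did not overlap. Cdk4 differed by -0.41 (interval -0.80 to -0.03, adjusted p = 0.19), so the change of Cdk4 from E11.5 was not shown to differ between the sexes. The Ccnd1 call was lost when only these 2 groups entered the fit (adjusted p = 0.0702), and the dimmer Ccnd1 probe set gave -0.04 (adjusted p = 0.841).

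ESC had more Ccnd1 than ICM. ESC over ICM gave 1.45 ± 0.20 for Ccnd1 (2.72-fold, limma adjusted p = 4.12e-06) and 0.45 ± 0.12 for Ccne1 (1.37-fold, adjusted p = 0.00718), and Ccnd3 was lower (-0.57 ± 0.16, 1.48-fold, adjusted p = 0.00789). Thus 2 members were higher, as were 15.3% of genes, and 1 lower, as were 12.6%; the 3 called stand beside 27.8% of genes. The arrays did not overlap for these 3 genes nor for Ccnd2 and Cdk2, 5 of 7 members beside 46.8% of all genes. The dimmer Ccnd1 probe set gave a smaller difference (0.28, adjusted p = 0.0478). With quantile normalization the Ccnd3 call was lost (-0.39, adjusted p = 0.134). Strain and sex differ between ICM and ESC and cannot be told apart from culture, and trophectoderm genes varied over the ICM arrays (mean of 6 genes 6.91 to 8.69, against 6.44 to 6.80 in ESC). Primitive endoderm genes averaged 9.66 to 9.80 in ICM and 8.33 to 8.48 in ESC, and the Gapdh 3′ minus 5′ difference was 3.77 to 4.17 in ICM and 2.46 to 2.84 in ESC; the part of these in the differences was not tested. With only these 2 groups in the fit the Ccnd3 and Ccne1 calls were lost (adjusted p = 0.165 and 0.129), as they were without ESC replicate 2 or ICM replicate 3 for Ccnd3 (-0.47, adjusted p = 0.106, and -0.39, 0.0595) and without ESC replicate 1 for Ccne1 (0.36, 0.12).

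EGC had still more Ccnd1 than ESC (1.59 ± 0.20, 3-fold, limma adjusted p = 8.18e-07) and more Ccne1 (0.48 ± 0.12, 1.4-fold, adjusted p = 0.00281), 2 members higher beside 20.8% of genes and none lower (0 also at an unadjusted p under 0.05) beside 18.6%, with 39.4% of genes called in either direction. Arrays of the lines did not overlap for either gene nor for Ccnd2, Ccnd3 and Cdk2, 5 of 7 members beside 66.1% of genes. Cdk2 was 0.57 apart (interval -0.01 to 1.14, adjusted p = 0.11; called with array weights, with the mean over its probe sets and, at adjusted p = 0.00228, with only these groups fitted) and Cdk4 -0.02 (-0.45 to 0.41). The fit of these groups alone also called Ccnd2 lower in EGC (-0.51, adjusted p = 0.00851). The Ccne1 call was lost without ESC replicate 2 (0.39, adjusted p = 0.0645). Compared with male germ cells of E13.5, EGC had more Ccnd1 (2.74 ± 0.18, 6.66-fold, adjusted p = 3.81e-12), Ccne1 (0.57 ± 0.11, 1.48-fold, adjusted p = 0.000228) and Cdk4 (0.50 ± 0.19, 1.42-fold, adjusted p = 0.0421). That is 3 of 7 higher, where 14.8% of genes were, and none lower (0 also at an unadjusted p under 0.05), where 15.9% were (30.7% in either direction). These 3 and Cdk2 did not overlap, beside 51.1% of genes, and 0.412% of genes had a larger difference than Ccnd1. The Cdk4 call was lost without 5 of the 6 arrays in turn (0.35 to 0.52 in those fits, adjusted p = 0.0806 to 0.209) and with quantile normalization (0.10, adjusted p = 0.777). Mesenchymal genes averaged 8.53 to 8.68 in EGC, 8.06 to 8.31 in ESC and 12.74 to 13.16 in MEF; their part in the Ccnd1 level of EGC was not tested. Nor was that of the actin 3′ minus 5′ difference, 1.72 to 1.99 in EGC against 0.21 to 0.51 in PGC E13.5 male, or of the 18S signal, 13 in EGC against 10.44 in ESC (group means). Ccnd2 read at most 7.11 in EGC and 10.15 ± 0.63 in MEF, which is no test of the part of mesenchymal RNA.

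MEF were likewise grown in serum but are not pluripotent, and the mean of ESC and EGC was set against them. Ccnd2 was 7.47-fold lower (-2.90 ± 0.20, limma adjusted p = 2.37e-13) and Ccnd1 3.09-fold lower (-1.63 ± 0.14, adjusted p = 2.23e-11). Ccne1 was 1.77-fold higher (0.82 ± 0.08, adjusted p = 9.4e-10), and Ccnd3 (0.51 ± 0.11, adjusted p = 0.000122), Cdk2 (0.53 ± 0.19, adjusted p = 0.0144) and Cdk4 (0.38 ± 0.14, adjusted p = 0.0194) were higher too. So 4 members were higher, beside 35.7% of genes, and 2 lower, beside 29.8%; the 6 called of 7 stand beside 65.6% of genes. The arrays did not overlap for these 6, beside 42.5% of all genes. The Cdk4 call was lost without ESC replicate 1 (0.37, limma adjusted p = 0.0573) and with arrays centred on their medians (0.32, adjusted p = 0.0511). It was also lost with the mean over probe sets (0.19, adjusted p = 0.11), and the dimmer Cdk4 probe set gave -0.01 (adjusted p = 0.961). The low level of proliferation genes in MEF (6.96 to 7.13, against 9.64 to 10.60 in the lines) went with this contrast, and its part was not tested.

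Haematopoietic stem cells had the lowest group means of Ccnd1 (brighter probe set) and of its kinase gene Cdk4. Such cells are largely quiescent in adult marrow. Proliferation genes averaged 7.93 to 8.12 in HSC and 6.96 to 7.13 in MEF, which had the most Ccnd1. The part of proliferation in the HSC levels was not tested. On the dimmer Ccnd1 probe set ICM (7.29) and ESC (7.57) had lower means than HSC (7.59). Against the mean of SGM, MEF and NSC, Ccnd1 was 9.06-fold lower (-3.18 ± 0.17, limma adjusted p = 3.62e-15) and Cdk4 3.7-fold lower (-1.89 ± 0.18, adjusted p = 4.49e-10). Ccne2 (-0.57 ± 0.11, adjusted p = 5.37e-05) and Ccnd2 (-0.70 ± 0.25, adjusted p = 0.0159) were lower, and Ccnd3 was higher (0.39 ± 0.13, adjusted p = 0.012). This is 4 of 7 lower, beside 27.6% of genes, and 1 higher, beside 36.8%; the 5 called stand beside 64.4% of genes. HSC arrays lay below every other somatic array for Ccnd1, Ccne2 and Cdk4, and 34.1% of genes did not overlap. Ccnd2 in HSC (8.47 and 8.55) lay above every SGM array (7.49 to 8.06) and below every MEF and NSC array. Ccnd3 in HSC (10.50 and 11.03) overlapped with SGM (10.70 to 10.92). The Ccnd2 call was lost with array weights (-0.78, adjusted p = 0.0647) and with only these groups fitted (-0.70, 0.0692). Centring arrays on their medians lost the Ccnd3 call (0.30, 0.0515). Without HSC replicate 2, Ccnd3 gave 0.13 (adjusted p = 0.527), and the Ccnd2 call was lost without either HSC array (-0.65 and -0.74, adjusted p = 0.108 and 0.0678).

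Neurospheres had more Ccnd1 (1.28 ± 0.17, 2.42-fold, limma adjusted p = 3.71e-07), Ccnd2 (1.06 ± 0.25, 2.09-fold, adjusted p = 0.000619) and Cdk4 (0.55 ± 0.18, 1.46-fold, adjusted p = 0.00971) than the mean of SGM, MEF and HSC, and less Ccnd3 (-0.69 ± 0.13, 1.62-fold, adjusted p = 6.97e-05). That is 3 of 7 higher, beside 28.1% of genes, and 1 lower, beside 30.8%; the 4 called stand beside 58.9% of genes. Of the 7 members only Ccnd3 separated NSC from every array of the other 3 groups, beside 27.7% of genes, since MEF lay higher for Ccnd1 and SGM for Cdk4. Without NSC replicate 1 the calls for Ccnd2 (0.71, adjusted p = 0.0805) and Cdk4 (0.42, adjusted p = 0.164) were lost.

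**Figure D3:**
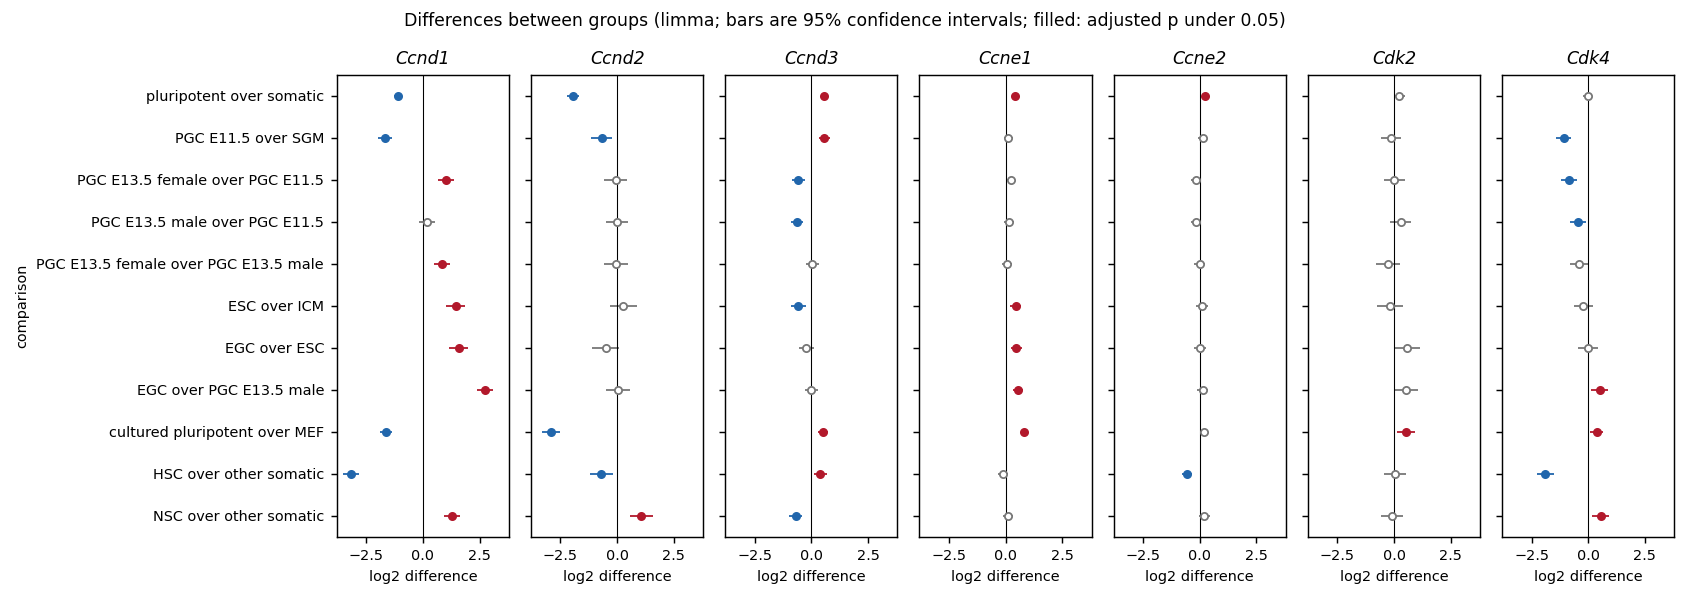
Log2 difference with its 95% confidence interval for the 7 genes in the 11 comparisons, 1 panel per gene; filled points (red higher, blue lower) passed an adjusted p of 0.05 in limma and open points did not. Ccnd1 passes in 10 of the 11 comparisons and spans -3.18 (HSC) to 2.74 (EGC over PGC E13.5 male), while Cdk2 passes in 1.

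The 2 probe sets of a gene did not always give the same order of groups. For Cdk4 they went together over the 10 group means (r = 0.952, rho = 0.842), and the dimmer set gave -1.34 (limma adjusted p = 2.41e-07) in female and -1.10 (adjusted p = 3.14e-06) in male germ cells over E11.5, and -1.85 (adjusted p = 2.96e-11) in HSC. In pluripotent over somatic cells the dimmer Cdk4 set was called lower (-0.18, adjusted p = 0.0414), where the brighter set had -0.03 without a call. For Ccnd1 the likeness was lower (r = 0.631, rho = 0.612). The dimmer Ccnd1 set gave -0.22 (adjusted p = 9.01e-05) for pluripotent over somatic cells, 0.76 (adjusted p = 2.95e-06) for EGC over ESC and -0.79 (adjusted p = 1.47e-08) for HSC, in the direction of the brighter set. It gave -0.09 (adjusted p = 0.386) for PGC E11.5 over SGM and 0.03 (adjusted p = 0.858) for EGC over PGC E13.5 male, where the brighter set had -1.67 and 2.74. For Cdk2 the pair was hardly related (r = 0.252, rho = 0.00606); the dimmer Cdk2 set was brighter than 10.4% of probe sets and was called in 1 comparison, cultured lines over MEF (0.23, adjusted p = 0.0141).

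**Figure D4:**
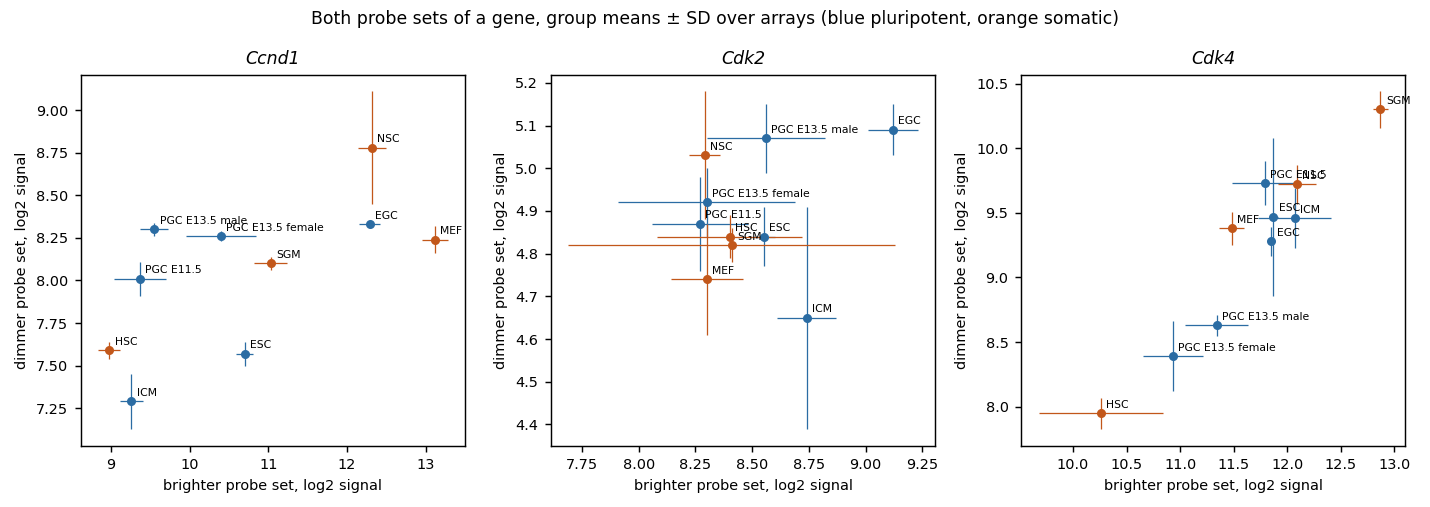
Group means ± SD over arrays of the brighter (x axis) and the dimmer (y axis) probe set of Ccnd1, Cdk2 and Cdk4, in log2 signal; each point is 1 of the 10 groups (blue pluripotent, orange somatic). Cdk4 points rise together (r = 0.952), Ccnd1 points less so (r = 0.631), and Cdk2 points show little common order (r = 0.252).

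The regulators and targets around these genes were taken as 8 lists with 69 genes, of which 53 were measured. In pluripotent over somatic cells 37 of the 53 were higher and 8 lower by limma, where 29.1% and 34.9% of all genes were. Of 18 E2F target genes of S phase entry 17 were higher and none lower (0 also at an unadjusted p under 0.05), with a median difference of 1.21 against -0.01 over all genes. The replication licensing factor Cdc6 had 2.15 (4.43-fold) and the licensing inhibitor Gmnn 1.87 (3.66-fold). All 5 measured E2F and DP factors were higher. Inhibitors went the other way: 3 of 4 INK4 and 3 of 3 CIP/KIP genes were lower, led by Cdkn1a, which encodes p21 (-1.03, 2.05-fold). The kinase gene Cdk5 was also lower (-0.83, 1.78-fold). These splits depended on single groups in places: without MEF the INK4 list had 1 higher and 2 lower, and without SGM the CIP/KIP list had 1 higher and 2 lower.

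In PGC E11.5 over SGM 29 of the 53 were higher and 8 lower, beside 23.2% and 26.9% of all genes. Fbxw7, the F-box protein that marks cyclin E for degradation, was 7.48-fold higher (2.90) and Cdc6 4.79-fold (2.26), while the CIP/KIP gene Cdkn1c, which encodes p57, was 11.9-fold lower (-3.57) and the pocket protein gene Rbl1 2.05-fold lower (-1.03). The next 2 comparisons share the E11.5 arrays with this one and with each other. In females over E11.5, 7 rose and 14 fell (11 and 13 with quantile normalization), beside 16.3% and 15.2% of all genes, with Cdkn1c at 1.30, the INK4 locus gene Cdkn2a at 0.95, Fbxw7 at -2.15 and Cdc6 at -1.54. In males over E11.5, 8 rose and 22 fell, beside 31.7% and 20.7% of all genes, among them 9 of 18 E2F targets; 3 of 4 INK4 genes rose, with Cdkn2a at 0.90 and Cdkn2b at 0.82, and Fbxw7 (-2.21) and the ribonucleotide reductase gene Rrm2 (-2.03) fell. The male counts were 10 rises and 16 falls with quantile normalization, and 5 and 24 with arrays centred on their medians. Of the 18 E2F targets, 7 and 11 fell in males under these 2 settings. The 2 CIP/KIP calls in males were 0 with arrays centred on their medians. Between the sexes 4 of the 53 genes were higher in females and none lower (14 and 0 at an unadjusted limma p under 0.05), beside 6.29% and 2.33% of all genes. The DNA polymerase gene Pola1 (0.87) and the retinoblastoma gene Rb1 (0.84) led these.

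In ESC over ICM 6 of the 53 genes were higher and 5 lower, beside 15.3% and 12.6% of all genes, with Cdkn1c at 1.34, the E2F partner Tfdp1 at 1.31, Cdc6 at -0.88 and the cyclin C gene Ccnc at -0.72. In EGC over ESC 8 were higher and 15 lower, beside 20.8% and 18.6% of all genes; Rrm2 (1.97) and Ccnc (1.34) led the first, Cdkn1c (-1.52) and Fbxw7 (-1.38) the second. In EGC over PGC E13.5 male 10 were higher and 7 lower, beside 14.8% and 15.9% of all genes, with Rrm2 at 2.91 (7.51-fold) and the CDK subunit gene Cks1b at 1.67, against Cdkn1c at -1.19 and Cdkn2a at -0.72. In the lines over MEF 36 were higher and 9 lower, beside 35.7% and 29.8% of all genes, 17 of 18 E2F targets among the first. There the replication helicase gene Mcm5 was 13.8-fold (3.79) and Gmnn 11.2-fold (3.48) higher, and Cdkn2b was 22.7-fold (-4.51) and Cdkn1a 7.06-fold (-2.82) lower.

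HSC had 6 of the 53 genes higher and 29 lower than other somatic cells, beside 36.8% and 27.6% of all genes. The INK4 gene Cdkn2d (0.87) and the replication factor gene Cdc45 (0.78) led the rises, while Rrm2 was 16.2-fold lower (-4.02) and Cdkn2b 7.97-fold lower (-2.99). NSC had 36 higher and 7 lower, beside 28.1% and 30.8%, with E2f8 (2.38) and the helicase gene Mcm7 (2.20) against Cdkn1c (-2.44) and Cdkn2b (-0.76). E2F targets were thus 3 higher and 9 lower in HSC, and 16 higher and 2 lower in NSC, of 18.

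Genes most like a member in their pattern over the 10 group means were sought among 5007 genes whose group means spanned at least 1 log2 unit. For Ccnd1 these were Gap43 (Pearson r = 0.934, Spearman rho = 0.976) and Pdia4 (0.904, 0.794), and for Ccnd2 Plod3 (0.976, 0.891) and Mmp14 (0.971, 0.77). For Ccnd3 they were Trim13 (0.937, 0.806) and Mtf2 (0.918, 0.891), for Ccne1 Cdkn2aipnl (0.899, 0.879) and Bex1 (0.898, 0.952), and for Cdk4 Trappc1 (0.876, 0.721) and Nde1 (0.874, 0.879). With 10 points and so many candidates these r values describe the likeness and carry no test; Ccne2 and Cdk2 spanned less than 1 log2 unit and were not matched.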

How the data were processed

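RNA was measured on Affymetrix arrays in 10 groups of mouse cells. Per the labels' protocols, RNA went through 2 rounds of in vitro transcription. The deposited values are log2 signals per probe set that the authors made with RMA, per the submitters' processing notes, which give no version. Of 34 columns, 2 (ESC replicate 3 and PGC E11.5 replicate 5) equal the mean of their group's other arrays within 1e-06 and were left out, leaving 32. Of 10833 probe sets with 1 gene, 10817 had their symbols updated through gene IDs, and the rest kept theirs. The brightest probe set stood for each of 8251 genes.

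A model of group means (limma 3.58.1 under R 4.3.3) was fitted over all 10 groups (22 residual degrees of freedom), two-sided, Benjamini-Hochberg over 8251 genes, called at 0.05. Errors of differences are SE, errors of group means SD. The number of arrays limits precision; the labels call replicates biological. Members and lists were chosen with earlier results of these data known, so counts over them are descriptions. Named pathway genes are the 2 largest called rises and falls per comparison. Tests were checked on simulated data. Residuals of like-numbered replicates correlated between -0.491 and 0.521 among groups compared alone with 3 or more shared numbers, so numbers were not taken as pairs. All lay over 0.1 for EGC with PGC E13.5 female (0.125 to 0.347) and PGC E11.5 with MEF (0.104 to 0.269), which meet only in the pooled comparison. Of the pairs with 2 shared numbers, all lay over 0.1 for ESC with SGM (0.167 and 0.198) and ICM with ESC (0.161 and 0.176). ICM and ESC are also compared directly. Alternatives were other normalizations, probe set choices, array weights, fewer groups or arrays, and the replicate block.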

Additional observations from a re-analysis of the deposited data

Results flagged for a closer look

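Dixon's test was applied to 21 pairs of member and group with 4 to 10 arrays, where chance marks about 1 in 20, and 2 pairs stood out. Ccnd2 read 8.06 in SGM replicate 3, while the other 3 SGM arrays read 7.49 to 7.55; the gap was 0.889 of the range against a critical value of 0.829. Cdk4 read 12.24 in PGC E11.5 replicate 4, while the other 3 arrays read 11.58 to 11.67, a gap of 0.862 of the range. The change of Ccnd1 from E11.5 to E13.5 was larger by 0.84 in female than in male germ cells, which limma tested directly (adjusted p = 0.00289; all 3 female arrays above all 3 male arrays). With only these groups fitted the adjusted p was 0.0702. The dimmer Ccnd1 probe set rose by 0.25 in females and 0.29 in males and gave -0.04 (adjusted p = 0.841) between them.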

How the results depend on the processing

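Values here are those that changed. The cyclin E minus cyclin D difference of pluripotent over somatic groups, 1.14, was 0.92 with linear signals summed, 0.58 without Ccnd2 (chosen after seeing the data), 1.35 without HSC, 0.83 without MEF and 1.35 without SGM, and 1.07 to 1.21 with each array left out. Fitted on the compared groups alone, 4 rather than 2 members were called in EGC over ESC (Cdk2 higher and Ccnd2 lower were added), 1 rather than 3 in ESC over ICM, 0 rather than 1 between the sexes and 1 rather than 2 in male germ cells over E11.5. Between the sexes 1 member, Ccnd1, had an unadjusted limma p under 0.05 in that smaller fit. Array weights gave 5 rather than 3 in female germ cells over E11.5. In male germ cells over E11.5, quantile normalization gave 1, Ccne1 higher (0.33, adjusted p = 0.0117) in place of Ccnd3 and Cdk4 lower, and the replicate block gave 1, Ccnd3 lower. With 1 array left out, members called were 1 to 2 in EGC over ESC (without ESC replicate 2), 3 to 5 in HSC (without HSC replicate 2), 2 to 4 in NSC (without NSC replicate 1) and 1 to 2 in male germ cells over E11.5. Reversals, where 1 of both values was called, were -0.01 for Cdk4 in cultured lines over MEF and -0.04 for Ccnd1 between the sexes, both with the dimmer probe set (chosen after seeing the data), and 0.37 for Cdk4 in pluripotent over somatic cells without SGM; differences called under neither setting were given no direction. The cause was not tested.

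Nothing in the labels ties equal replicate numbers of different groups; with the numbers as a block, calls were lost for Cdk4 in male germ cells over E11.5 (-0.41, adjusted p = 0.0754), Cdk4 in EGC over PGC E13.5 male (0.50, 0.0616) and Cdk2 in cultured lines over MEF (0.45, 0.0655), and no other call of a member changed. Over all genes, ESC over ICM had 2296 calls, or 776 with only both groups fitted; array weights gave 4146 rather than 2602 for female germ cells over E11.5 and 1243 rather than 711 between the sexes. With arrays centred on their medians, the share of higher calls went from 60.5% to 44.5% in male germ cells over E11.5 (median difference 0.15 to 0.06) and from 54.9% to 43.1% in ESC over ICM. Groups of 2 arrays (ESC, NSC, HSC) and the dim Ccne2 probe set limit the precision.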
